A study of Mus musculus with 3 samples.

Results

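The cells described here were the 68 of 697 sorted naive CD4 T cells in which Kcnq1ot1 took over 2% of all gene transcripts counted. They are called rich cells. They made up 9.8% of the cells (95% exact binomial interval 7.7 to 12.2, which covers counting error only). Plate 1 held 22 rich cells among 172, plate 2 held 11 among 201, and plate 3 held 35 among 324. Each rich cell was set against the 2 other cells of its plate that lay nearest in total transcripts without Kcnq1ot1, which gave 136 matched cells (44, 22 and 70 in plates 1, 2 and 3). Because Kcnq1ot1 chose the cells, it was left out of the totals used for matching and of every test, and its own values are given as a description.

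The mice were C57BL/6, 8 to 12 weeks old, with both sexes pooled, and their spleens and lymph nodes were combined. Live single cells were sorted without any treatment by a gate for naive cells that included TCRb+ CD4+ CD8- CD25- CD44- CD5+. CD5 is a surface protein whose level follows the strength of self-recognition. Rich and matched cells therefore shared strain, age range, pool of tissues, gate and plate, and they were set apart by the Kcnq1ot1 share. The sex, organ and exact age behind a single cell are not known, so the groups may differ in these. The assay was SORT-seq, which runs CEL-Seq2 chemistry in the wells of a plate. A primer with a run of T copies RNA from its poly(A) tail and adds a unique molecular identifier (UMI), so that molecules rather than reads are counted.

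Kcnq1ot1 is a long non-coding RNA that is read from the paternal chromosome, antisense to the potassium channel gene Kcnq1. Its promoter lies in an imprinting control region that is methylated on the maternal chromosome. In embryo and placenta the RNA acts in cis and silences neighbouring genes such as Cdkn1c and Phlda2. It stays in the nucleus and is mostly unspliced.

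In GENCODE M21 (GRCm38, the assembly of mm10), the Kcnq1ot1 transcript has 93092 bases without introns, on the minus strand of chromosome 7 from 143203458 to 143296549. A run of 10 or more A, to which a poly(T) primer can anneal inside an RNA, occurred 10 times in it. The longest, with 41 A, began at base 69565 and is shown because it lies near sequences that other transcripts share, with the run in capitals (chr7:143226925-143227025, minus strand, GRCm38).
Kcnq1ot1 longest A run: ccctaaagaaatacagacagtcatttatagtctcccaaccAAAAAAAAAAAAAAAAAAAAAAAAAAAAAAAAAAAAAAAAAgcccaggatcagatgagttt

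A set of 7 other transcripts followed Kcnq1ot1 from cell to cell, and 5 of them held an exact stretch of at least 20 bases in common with Kcnq1ot1 on the same strand. The longest stretch of 4 of these follows as it stands in Kcnq1ot1, with the shared bases in capitals and flanks in lower case. These 4 stretches began between bases 67505 and 76101, a window of 9.2% of the transcript that also held 3 of the 10 A runs.
A630089N07Rik (63 bases shared, chr7:143228983-143229045): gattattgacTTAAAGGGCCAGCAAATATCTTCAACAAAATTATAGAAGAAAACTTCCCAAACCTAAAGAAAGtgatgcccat
A130077B15Rik (49 bases shared, chr7:143221117-143221165): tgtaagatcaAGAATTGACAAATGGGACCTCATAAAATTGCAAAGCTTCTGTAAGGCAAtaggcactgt
Grk4 (41 bases shared, chr7:143220409-143220449): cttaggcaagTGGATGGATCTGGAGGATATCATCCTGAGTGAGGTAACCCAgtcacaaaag
Vmn2r55 (24 bases shared, chr7:143224290-143224313): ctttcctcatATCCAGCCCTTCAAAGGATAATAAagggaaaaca
The coordinates give the shared bases on the minus strand of GRCm38. The stretch of Grk4 also stood in transcripts of 3 other genes, and those of A630089N07Rik and A130077B15Rik in transcripts of 1 other gene each. Gm17821 and Gm10785 shared no stretch of 20 bases. The search for stretches of 20 bases covered the 7 transcripts only, so the 5 of 7 has no base rate to be read against. At the longer cut of 25 bases, 23.4% of the transcripts not called higher in the gene comparison below also shared a stretch with Kcnq1ot1. The sources used here do not say how reads that fit several places were treated.

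The share of Kcnq1ot1 had no gap at the threshold. The 3 rich cells nearest to it had 2.005%, 2.021% and 2.025%, and the 3 cells just below it had 1.966%, 1.954% and 1.953%. A further 79 cells lay between 1% and 2%. Of the rich cells, 31 lay between 2% and 3% and 12 exceeded 5%. The median share of rich cells was 3.24%, 2.42% and 3.37% in plates 1, 2 and 3, against 0.738%, 0.757% and 0.566% in matched cells and 0.423%, 0.319% and 0.427% in all other cells. These shares chose the cells and carry no test.

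A single cell of plate 3 stood apart, with 1737 Kcnq1ot1 UMIs among 9574 UMIs in all, a share of 18.1%. The next cell, also of plate 3, had 344 of 3724 UMIs, or 9.24%. The 7 transcripts that follow Kcnq1ot1 gave a further 2643 UMIs in the first cell and 464 in the second. The first cell had a mitochondrial share of 8.14%, the lowest among rich cells, and its CD5 fell in the authors' High class. Without this cell and its matched cells, 38 transcripts were called higher in the gene comparison, 37 of them among the 39 called with it, and 1 was called lower.

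**Figure D1:**
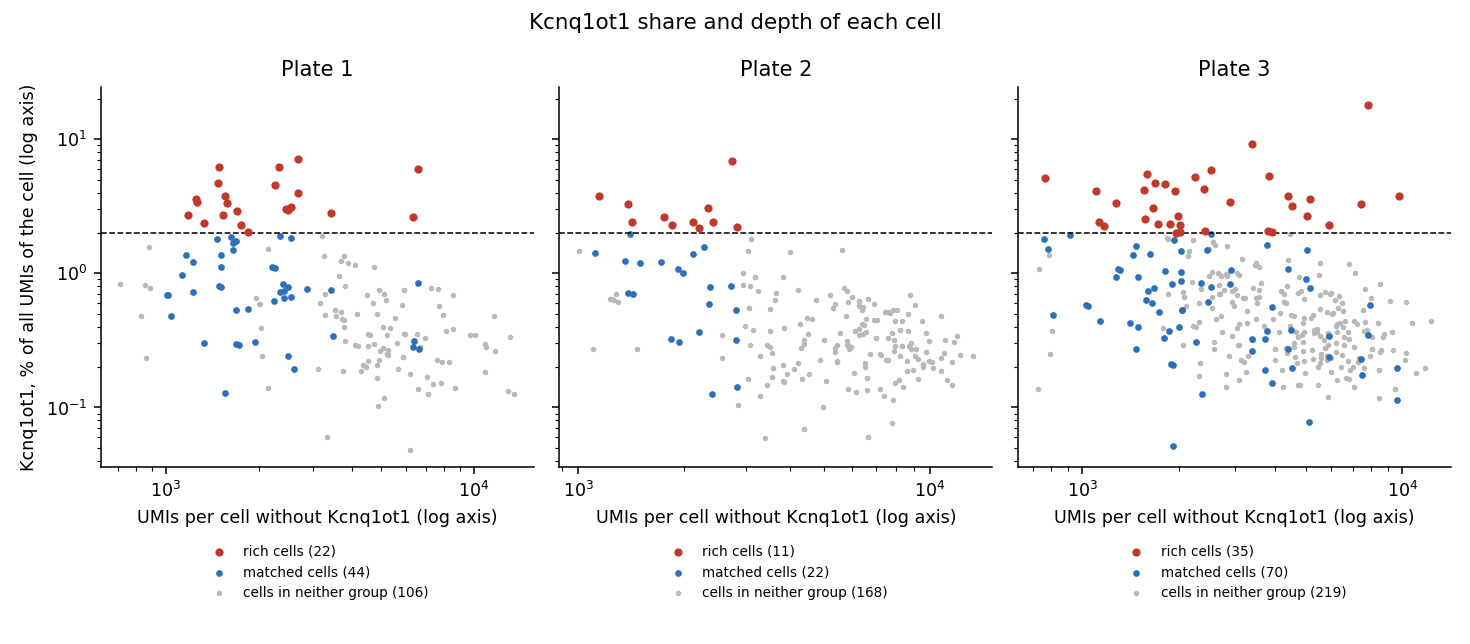
Share of Kcnq1ot1 in each cell (y, percent of all UMIs, log axis) against UMIs without Kcnq1ot1 (x, log axis) by plate, with rich cells in red, matched cells in blue and cells in neither group in grey. The dashed line is the 2% threshold, most rich cells lie at the shallow end of each plate, and 3 cells with no Kcnq1ot1 UMI are not drawn.

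Rich cells yielded fewer UMIs than most cells. Their median UMIs without Kcnq1ot1 were 1797, 2121 and 2026 in plates 1, 2 and 3, against 4105, 5788 and 4226 in all other cells of those plates. The genes detected per cell were 722.5, 830.0 and 889 in rich cells, against 1303, 1542 and 1414 in all other cells. Spike-in RNA, added to each well in the same amount, gave 1108, 1073 and 1363 UMIs in rich cells and 1072, 1012 and 1288 in all other cells. The UMIs per spike-in UMI were thus 1.95, 1.88 and 1.61 in rich cells, against 3.88, 5.87 and 3.54 in all other cells. The total is the denominator of the rule, so these depths are given as a description.

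Set against the spike-in, Kcnq1ot1 gave 91.8, 59.9 and 110.4 UMIs per 1000 spike-in UMIs in rich cells, against 19.7, 21.6 and 17 in all other cells. Gm17821, annotated as a processed pseudogene on chromosome 12, gave 58.1, 40.9 and 64.4 in rich cells, against 12.2, 15.9 and 11 in all other cells. Grk4, on chromosome 5, encodes a kinase that phosphorylates activated G protein-coupled receptors, and it gave 21.1, 12.2 and 25.4 in rich cells, against 4.06, 4.24 and 3.61 in all other cells. Kcnq1ot1 chose the cells and the other two were known to follow it, so these values are a description.

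Matching removed the difference in depth for most pairs. The median distance between a rich cell and a matched cell was 0.03 on the log2 scale of total UMIs and the largest 0.45, with 21 of the 136 pairs over 0.1. Matched cells had medians of 1783, 1955 and 2051 UMIs and 761.5, 755.5 and 914 genes in plates 1, 2 and 3. UMIs per spike-in UMI were 1.95, 1.88 and 1.61 in rich cells and 1.77, 2.77 and 1.89 in matched cells, so rich cells were higher in plate 1 and lower in plates 2 and 3 (mean log2 ratio -0.22, SD 0.35, n = 3 plates).

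Identity as naive CD4 T cells was read from 12 markers, all of which had UMIs in both groups. They summed to 1514 UMIs in the 68 rich cells and 3160 in the 136 matched cells. Cd4 was found in 64 rich and 126 matched cells, Cd3e, a signalling chain of the T cell receptor complex, in 44 and 99, and Lef1, a transcription factor of naive T cells, in 47 and 99.

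Most markers of other cell types were scarce, and Ctss gave the most UMIs in both groups. The 4 B cell markers summed to 6 UMIs in rich cells and 1 in matched cells, the 6 all from Cd79a in 3 cells, with Cd79b and Ms4a1 at 0 in both. The CD8 markers Cd8a and Cd8b1 summed to 5 UMIs in rich cells and 10 in matched cells. The 3 myeloid markers in the table gave 34 and 78 UMIs, of which Ctss, a protease gene that lymphocytes can also express, gave 30 and 56 and was found in 21 rich and 32 matched cells. Cst3, another myeloid marker, gave 3 UMIs in rich cells and 20 in matched cells. The NK cell receptor gene Klrd1 gave 14 UMIs in 8 rich cells and 12 UMIs in 7 matched cells, and Nkg7 gave 0 and 1. The part of these cell types in the gene comparison was not tested. Summed UMIs were 15 and 21 for the 4 regulatory T cell markers, 1 and 0 for the platelet marker, and 0 in both for the erythroid marker. The regulatory markers differed, as Foxp3 gave 10 UMIs in 4 rich cells and 7 UMIs in 7 matched cells. Il2ra gave 2 and 1 UMIs, Ikzf2 2 and 11, and Ctla4 1 and 2.

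The 7 transcripts that follow Kcnq1ot1 were known from earlier results of these cells, so their values describe the cells and support nothing further. Their UMIs kept close to a fixed ratio to those of Kcnq1ot1. Gm17821 amounted to 63.3%, 68.2% and 58.4% of the Kcnq1ot1 UMIs in rich cells of plates 1, 2 and 3, and to 59.6%, 65.1% and 66.7% in matched cells. Grk4 amounted to 23.0%, 20.3% and 23.0% in rich cells and 23.7%, 24.0% and 20.2% in matched cells. A630089N07Rik, on chromosome 16, amounted to 36.0%, 36.7% and 32.7% in rich cells and 36.9%, 28.5% and 36.4% in matched cells. The group ranges of these ratios overlapped for each of the 3 transcripts.

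Among the 68 rich cells the summed share of the 7 transcripts was larger where the Kcnq1ot1 share was larger, with a Spearman rho of 0.85 (0.86, 0.92 and 0.88 within plates 1, 2 and 3). The same rho was 0.88 over the 136 matched cells. Shares of 1 cell have a common depth, and cells are not replicates, so no p is given. The single transcripts ranged from 0.58 for A130077B15Rik to 0.84 for Gm17821. The rho of the Kcnq1ot1 share with depth was 0.06 in rich cells and -0.31 in matched cells, and with CD5 it was 0.06 and -0.06. With the mitochondrial share it was 0.05 in rich cells (0.18, 0.51 and -0.26 within plates 1, 2 and 3) and 0.27 in matched cells. With the share of ribosomal protein transcripts it was -0.37 in rich cells (-0.47, -0.43 and -0.33 within plates) and -0.06 in matched cells.

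Along the whole range of Kcnq1ot1, the median share of the 7 transcripts was 0.455% of UMIs in the 383 cells at 0.5% or less, 1.04% in the 167 cells up to 1%, 2.23% in the 79 cells up to 2%, 4.03% in the 31 cells up to 3%, 6.29% in the 25 cells up to 5% and 9.91% in the 12 cells above. Depth moved with this range too, with medians of 5442, 3275, 2205, 1995, 1809 and 2608 UMIs, and its part in the order was not tested.

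**Figure D2:**
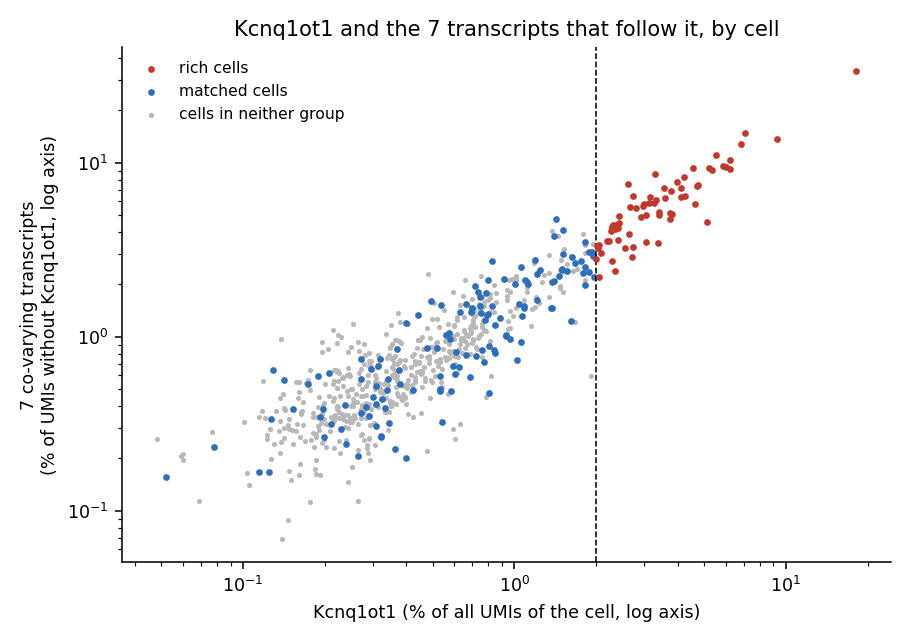
Summed share of the 7 transcripts that follow Kcnq1ot1 (y, percent of UMIs without Kcnq1ot1, log axis) against the Kcnq1ot1 share (x, percent of all UMIs, log axis), 1 point per cell, rich cells in red, matched cells in blue, others in grey, and 3 cells at 0 not drawn. The points form 1 band that runs through the dashed 2% line with no break.

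The gene comparison asked which other transcripts differed between rich cells and cells matched on total UMIs. UMIs of each group were summed within each plate, and the 6 sums were compared with edgeR's quasi-likelihood test with the plate as a block. Of 1073 transcripts tested, 39 were called higher in rich cells (3.63%) and 0 lower (0.0%) at a Benjamini-Hochberg adjusted p of 0.05. At an unadjusted p under 0.05, 91 transcripts passed, 25 of them lower, and DESeq2's Wald test called 30 higher and 0 lower. Of the 39, 38 were higher in all 3 plates, which 15.1% of all tested transcripts were. The calls were made on these same plates, so this count is a description.

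A filter asked for at least 130.4 CPM (counts scaled to a common library total) in 3 sums. In 27 of the 39 the rich sums alone met it in every plate, and in 12 the matched sums met it too. A transcript found only through the group where it is high had to differ, so the 27 are given with levels and fold changes and no p. With no filter on low values 29 were called higher, 28 of them among the 39. The median fold of all 39 was 6.63. The lowest, 1.76, was that of mt-Rnr1, and the highest was that of Gm6602. It had 31 UMIs in rich cells and 2 in matched cells, a ratio per UMI of 30.6. Gm6602 is among the 27 and its ratio rests on 2 matched UMIs, so the ratio is a description.

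The 7 transcripts that follow Kcnq1ot1 were all among the 39, and since they were known to follow it their fold changes carry no p. Gm17821 stood at 38298, 29287 and 45000.3 CPM in rich cells of plates 1, 2 and 3, against 5874, 6485 and 5041 CPM in matched cells (log2 fold change 2.70, SE 0.18). Grk4 stood at 13906, 8709 and 17717 CPM in rich cells, against 2337, 2391 and 1523 CPM in matched cells (log2 2.73, SE 0.22). The ranges of the rich and matched sums lay apart for both transcripts.

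A630089N07Rik had 21770.3, 15747 and 25239 CPM in rich cells, against 3628, 2839 and 2756 CPM in matched cells (log2 2.77, SE 0.17). Vmn2r55, on chromosome 7 from 12651706 to 12685003, belongs to the vomeronasal receptors that detect pheromones. It had 11199, 10737 and 13670.3 CPM in rich cells, against 1794, 1853 and 1220.0 CPM in matched cells (log2 2.92, SE 0.19). Gm10785, an antisense RNA gene, and A130077B15Rik, a long intergenic RNA gene, had log2 fold changes of 2.81 and 2.73. In both the lowest rich sum also lay above the highest matched sum.

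**Figure D3:**
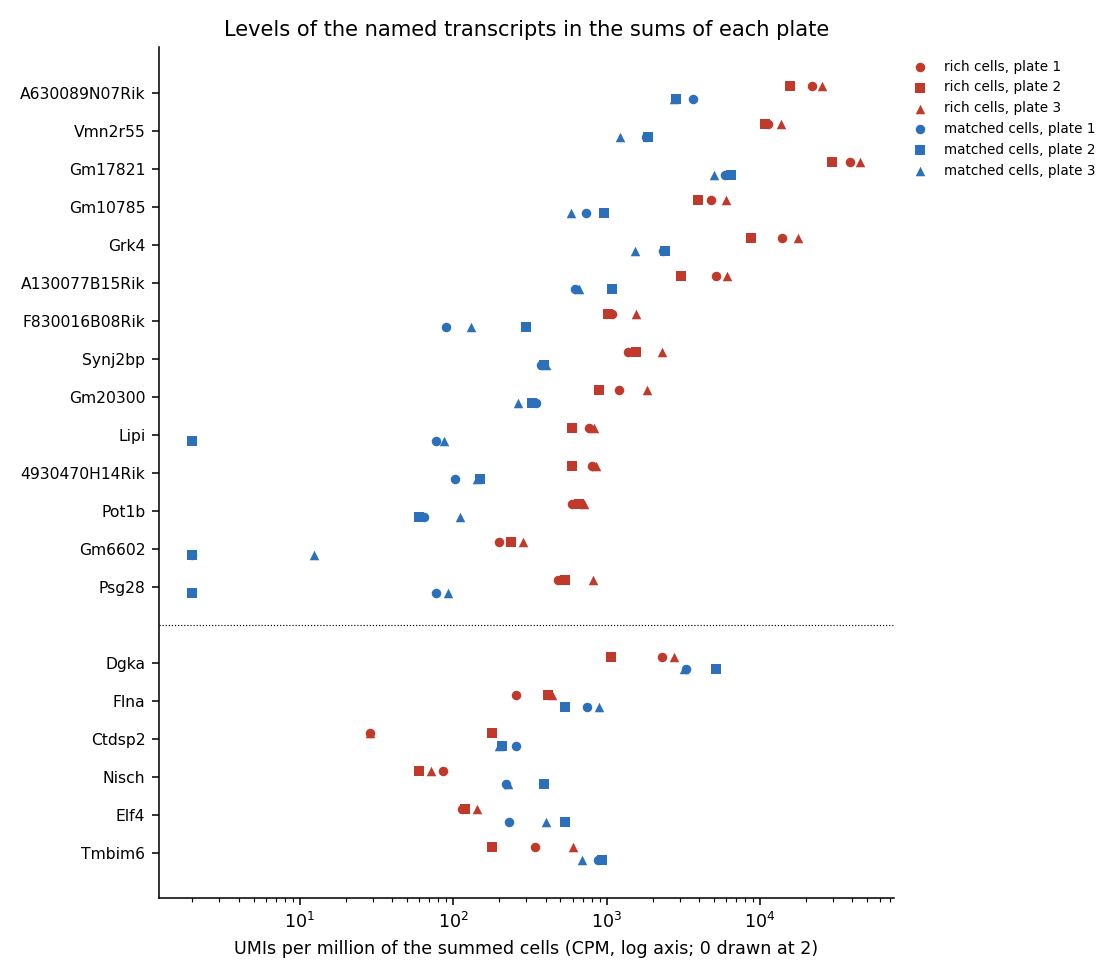
Level of each named transcript (x, CPM of the summed cells, log axis, with 0 drawn at 2) in rich cells (red, upper row of each gene) and matched cells (blue, lower row), with circles, squares and triangles for plates 1, 2 and 3. The 14 transcripts above the dotted line were called higher from these same sums, so the gap between their groups is no separate result. The 6 below it had the smallest p among lower ones and did not pass.

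Beyond these 7, 32 transcripts were called, and they came from many unrelated families. Synj2bp, which encodes a protein of the outer mitochondrial membrane, had 1368, 1551 and 2302 CPM in rich cells, against 374, 389 and 403 CPM in matched cells (log2 2.19, SE 0.25, adjusted p = 4.59e-07). Gm20300, a long intergenic RNA gene, had 1197, 895 and 1845 CPM in rich cells, against 349, 329 and 266 CPM in matched cells (log2 2.18, SE 0.30, adjusted p = 9.5e-06). The matched sums of both passed the filter, and the rich and matched sums did not overlap. F830016B08Rik, which like the next 5 passed the filter only through the rich sums, had 1083, 1014 and 1559 CPM in rich cells, against 90.4, 298.8 and 130.0 CPM in matched cells (log2 3.11).

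Lipi, which encodes a membrane-bound lipase, had 769, 597 and 829 CPM in rich cells, against 77.5, 0 and 86.7 CPM in matched cells, and 38 of 68 rich and 12 of 136 matched cells held a UMI of it. Pot1b, whose protein binds single-stranded telomeric DNA, was found in 37 rich and 20 matched cells (log2 2.95). Psg28, a pregnancy-specific glycoprotein of the placenta, was found in 37 rich and 15 matched cells (log2 3.20). The long intergenic RNA 4930470H14Rik was found in 45 rich and 23 matched cells, and Gm6602 in 21 and 2.

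The next 6 called transcripts lie outside the naming rule and were chosen after their values were seen, to show the range of families. The first 5 passed the filter only through the rich sums. Olfr613, an olfactory receptor, was found in 30 rich and 15 matched cells (log2 2.57). Cxcr2, a chemokine receptor of neutrophils, was found in 33 and 26 (log2 2.28). Acnat1, a peroxisomal acyltransferase, was found in 41 and 14 (log2 3.13). Pdk4, which restrains pyruvate dehydrogenase, was found in 27 and 15, and Maoa, a monoamine oxidase, in 22 and 11. Ifnar1, a subunit of the type I interferon receptor, had 741, 418 and 915 CPM in rich cells, against 349, 179 and 217 CPM in matched cells (log2 1.55, SE 0.38).

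The called transcripts beyond the 7 and mt-Rnr1, 31 in all, were spread over the rich cells. The median rich cell held UMIs of 14 of them and the median matched cell of 4, with ranges of 4 to 31 and 0 to 18. Their summed share was 1.20%, 1.12% and 0.974% of UMIs in rich cells of plates 1, 2 and 3, against 0.302%, 0.275% and 0.271% in matched cells. They were chosen by this contrast, so these figures only describe how they are distributed. Across all 697 cells their median share was 0.203% where Kcnq1ot1 was at most 0.5%, 0.467% between 1% and 2%, and 1.86% above 5%.

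The calls were also read in a plate that had not made them. Without plate 1, 7 transcripts were called higher, and all 7 were higher in rich cells of plate 1, as were 38.1% of all transcripts tested there. Without plate 2, 58 were called and 48 of them were higher in plate 2, beside 42.2% of all tested. Without plate 3, 10 were called and 10 were higher in plate 3, beside 27.8% of all tested. The calls thus numbered 7 without plate 1 and 10 without plate 3, beside 39 with all plates. All of these 7 and 10 were among the 39, and the 58 called without plate 2 held all 39. Beyond the 7 transcripts that follow Kcnq1ot1, 1 of 1, 41 of 51 and 3 of 3 calls were higher in the plate left out. The 58 included the 27 that, with all plates, passed the filter only through the rich sums. Calls were not split by the filter in this reading, so its counts are a description.

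**Figure D4:**
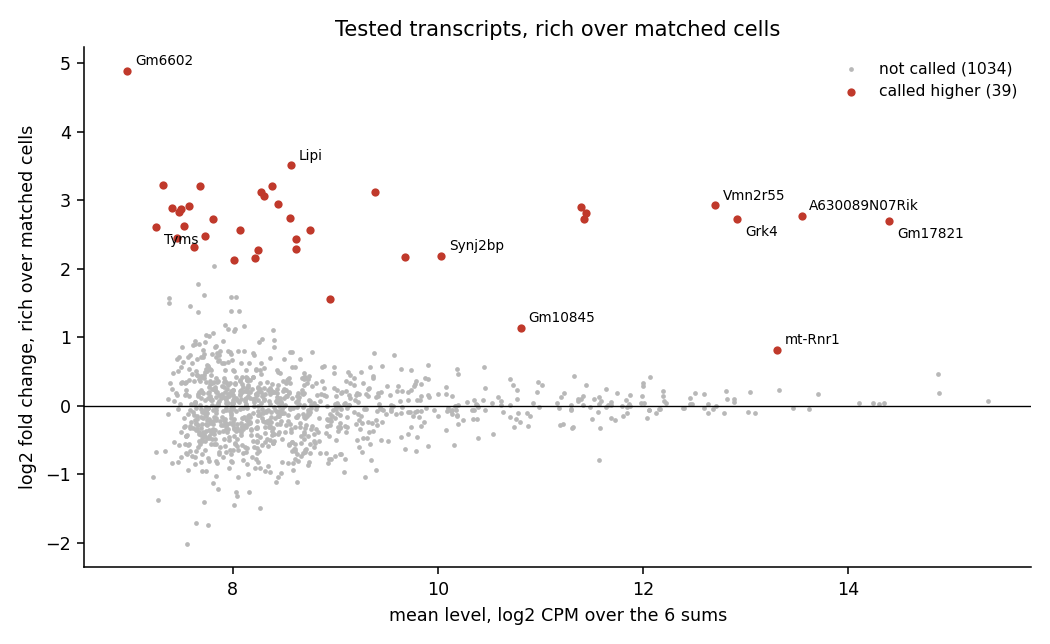
Log2 fold change of rich over matched cells (y) against the mean level (x, log2 CPM over the 6 sums) of the 1073 tested transcripts, with the 39 called higher in red and the rest in grey. Called points lie above 0 at all levels, most of them near 2 to 3, and mt-Rnr1 (0.81) and Gm10845 (1.14) have the smallest fold changes among them.

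The 39 called transcripts lay on 17 chromosomes, with 3 on chromosome 7. By GENCODE type, 24 (61.5%) were protein coding, against 97.9% of the 1018 tested and not called that could be matched to the annotation, 10 were long non-coding RNAs and 3 were pseudogenes. Their median longest transcript had 3200 bases, against 3166 in those not called.

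Sequence that recurs between genes was more common in the called transcripts. Of all stretches of 25 bases in a gene's transcripts, a median of 4.22% also stood in transcripts of at least 5 other genes for the called, against 0.32% for those not called. The quartiles were 2.22% and 11.25% for the called and 0.0% and 1.58% for those not called. A share over 5% was found in 17 of the 39 (43.6%) and in 105 of those not called (10.3%). An exact stretch of 25 bases in common with Kcnq1ot1 was found in 18 of 39 (46.2%) and in 238 (23.4%). A run of at least 10 A was found in 5 of 39 (12.8%) and in 342 (33.6%). The 39 were chosen by their counts, and reads of genes that share sequence can be assigned to the wrong gene, so counts of single genes with such stretches are uncertain. Of the 39, 27 passed the filter only through the rich sums, and the other 12 were not read apart. The part of the filter and of level in these contrasts of gene type and sequence was not tested.

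The promoter of Kcnq1ot1 is known for repeated CCAAT boxes, and it is shown with these in capitals because it drives the RNA that chose the cells. A link between this promoter and the called transcripts was not tested. The window runs from 250 bases before to 50 bases after the start, chr7:143296498-143296797 on the minus strand (RefSeq, GRCm38.p6).
Kcnq1ot1 promoter: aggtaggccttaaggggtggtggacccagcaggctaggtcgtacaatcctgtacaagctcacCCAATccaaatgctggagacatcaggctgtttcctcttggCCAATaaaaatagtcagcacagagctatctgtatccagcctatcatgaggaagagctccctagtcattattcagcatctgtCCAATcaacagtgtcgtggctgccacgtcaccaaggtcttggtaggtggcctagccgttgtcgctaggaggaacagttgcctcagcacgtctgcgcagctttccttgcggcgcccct
It held CCAAT 3 times over both strands, and 3.56% of 27025 promoters of the same length held it at least 3 times. Of 23 called transcripts with a promoter in the table, 11 held CCAAT at least once, beside 37.9% of all promoters. GGGCGG and TATAAA, also searched on both strands, were not in the Kcnq1ot1 window. GGGCGG was in 9 of the 23, beside 35.9% of all promoters, and TATAAA in 4 of the 23, beside 14.2%.

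Neighbours of Kcnq1ot1 were scarce in both groups. The list used for its imprinted region held 14 genes in the table, with Igf2, H19 and Mrpl23 from outside the Kcnq1ot1 domain itself. In this list Cdkn1c, a cell cycle inhibitor that Kcnq1ot1 silences in cis in the embryo, gave 0 UMIs in rich cells and 1 in matched cells. The 14 together gave 75 UMIs in rich cells and 178 in matched cells, which is 0.0425%, 0.0316% and 0.0433% of UMIs in rich cells of plates 1, 2 and 3, against 0.0452%, 0.0597% and 0.0503% in matched cells. Tspan32, a tetraspanin of blood cells and the only 1 tested, had 285, 179 and 272 CPM in rich cells, against 245, 418 and 167 CPM in matched cells (log2 0.11, SE 0.50, adjusted p = 0.989). The summed share of the list in rich cells was below that of matched cells in each plate, and the sum carries no test. The 7 transcripts that follow Kcnq1ot1 took 6.77%, 5.65% and 7.88% of the same totals in rich cells, against 1.21%, 1.27% and 0.935% in matched cells. Their larger part lowers the share of all other transcripts in rich cells, and the list was not read without them in the totals.

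Mitochondrial transcripts differed little. Their median share was 17.9%, 13.6% and 16.1% of UMIs in rich cells, against 16.1%, 13.5% and 15.8% in matched cells, a mean difference of 0.74 percentage points (SD 0.88, higher in 3 of 3 plates, n = 3). An exact permutation of signs over the plates gave p = 0.25 (two-sided), and with 3 plates 0.25 is the smallest p this test can give. In the gene test 1 of 14 mitochondrial transcripts was called, and 13 of the 14 lay above 0, with a median log2 fold change of 0.18, beside -0.01 over all tested. The median share of mitochondrial ribosomal RNA alone was 2.13%, 2.89% and 2.24% in rich cells, against 1.96%, 2.56% and 1.91% in matched cells (mean difference 0.27 points, SD 0.1, higher in 3 of 3 plates, n = 3, exact permutation p = 0.25).

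The called one, mt-Rnr1, encodes the RNA of the small mitochondrial ribosome subunit, and it had 15786, 6681 and 16359 CPM in rich cells, against 7810.2, 7172 and 6441 CPM in matched cells (log2 0.81, SE 0.19, adjusted p = 0.00903). It was lower in plate 2, the only called transcript whose plates differed in sign. Its adjusted p lay between 1.7e-09 and 0.999 over 19 alternatives, of which 12 kept the call, and it was 0.999 without plate 1 and 0.437 without plate 3. The RNA of the large subunit, mt-Rnr2, had 30489.9, 30599.5 and 43299 CPM in rich cells, against 22939.9, 30481 and 22269 CPM in matched cells (log2 0.47, SE 0.17, adjusted p = 0.211).

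The share of cytosolic ribosomal protein transcripts was 19.3%, 18.7% and 15.8% in rich cells, against 19.7%, 20.8% and 17.2% in matched cells, a mean difference of -1.30 percentage points (SD 0.88, lower in 3 of 3 plates, n = 3, exact permutation p = 0.25). The 6 listed transcripts that follow Kcnq1ot1 took 6.45%, 5.40% and 7.48% of the summed UMIs in rich cells and 1.14%, 1.20% and 0.903% in matched cells. Without them in the totals the difference was -0.65 points, and it was 0.28 points in cells thinned to 1500 UMIs. Of 70 ribosomal protein genes tested, 0 were called, and their median log2 fold change was 0.03 after scaling.

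Shares of the ribosomal RNA precursor Rn45s and of Malat1, an abundant nuclear RNA, had no common direction. Rn45s took 1.11%, 2.07% and 1.52% in rich cells, against 1.498%, 1.42% and 1.28% in matched cells (mean difference 0.17 points, SD 0.52, n = 3, exact permutation p = 0.75). Malat1 took 0.0826%, 0.0722% and 0.153% in rich cells, against 0.0840%, 0.191% and 0.135% in matched cells (mean difference -0.03 points, SD 0.07, n = 3, exact permutation p = 0.75). Both differences were smaller than the spread between plates. In a list of nuclear RNAs 0 of 5 tested were called, with a median log2 fold change of 0.19. Snhg1, a host gene of small nucleolar RNAs, had 370.4, 597 and 215 CPM in rich cells, against 103, 149 and 204 CPM in matched cells (log2 1.09, SE 0.52, adjusted p = 0.565).

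CD5 on the cell surface was recorded at the sort and was no part of the rule. Median CD5 fluorescence was 69261, 66767 and 52488 units in rich cells of plates 1, 2 and 3, against 40351, 64667 and 44732 units in matched cells. The log2 ratios were 0.78, 0.05 and 0.23, with a mean of 0.35 (SD 0.38, higher in 3 of 3 plates, n = 3, exact permutation p = 0.25), so the difference was within the spread between plates. Of the rich cells 35.3% (24 of 68, 95% exact interval 24.1 to 47.8) were in the authors' High class, against 29.4% of matched cells (21.9 to 37.8). By plate these were 11 of 22, 4 of 11 and 9 of 35 rich cells, against 13 of 44, 9 of 22 and 18 of 70 matched cells. The share of High cells was thus larger in rich cells of plate 1 only. Counted the other way, 13.8% of High cells (9.0 to 19.8), 9.2% of Middle cells (6.4 to 12.7) and 6.9% of Low cells (3.6 to 11.7) were rich. These intervals pool the plates and cover counting error only. The transcript of Cd5 had 313, 179 and 200.2 CPM in rich cells, against 400.2, 269 and 229 CPM in matched cells (log2 -0.33, SE 0.49, adjusted p = 0.989).

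**Figure D5:**
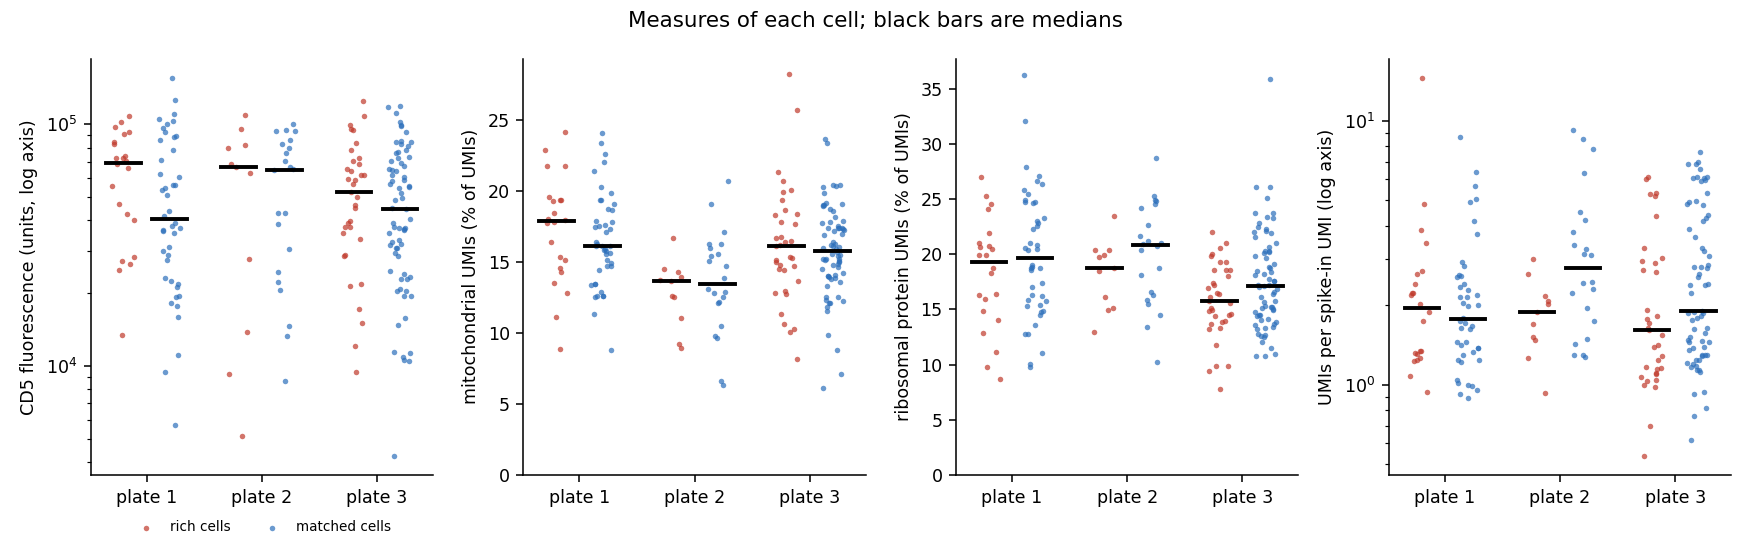
CD5 fluorescence (log axis), mitochondrial share, ribosomal protein share and UMIs per spike-in UMI (log axis) of each rich cell (red, left of each pair) and matched cell (blue, right) by plate, with black bars at the medians. The groups overlap widely in every panel, and the CD5 medians differ most in plate 1, at 69261 and 40351 units.

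No transcript was called lower. The 6 of smallest p among the lower ones did not pass. Dgka, a diacylglycerol kinase that damps signalling from the T cell receptor, had 2279.6, 1074 and 2746 CPM in rich cells, against 3279, 5140.0 and 3189 CPM in matched cells (log2 -0.79, SE 0.23, adjusted p = 0.0553). Its groups did not overlap, and it passed in 6 of 19 alternatives, with an adjusted p between 0.000574 and 0.992. Flna, the actin cross-linker filamin A, had 257, 418 and 443 CPM in rich cells, against 749, 538 and 892 CPM in matched cells (log2 -1.03, SE 0.33, adjusted p = 0.115). Ctdsp2, a phosphatase, Nisch, which encodes nischarin, Elf4, an ETS transcription factor, and Tmbim6, an inhibitor of cell death at the endoplasmic reticulum, had log2 values from -2.01 to -0.93 and adjusted p-values from 0.210 to 0.226.

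Other gene lists held few calls. Of 27 tested genes of naive T cell identity 0 were called, with a median log2 fold change of 0.04, and of 12 naive CD4 T cell markers 0 were called, with 0.08. Lat, a scaffold of T cell receptor signalling, had 741, 1193 and 1316 CPM in rich cells, against 1498, 1524 and 1455 CPM in matched cells (log2 -0.47, SE 0.23, adjusted p = 0.583). Of 10 genes induced by the T cell receptor 0 were called (median 0.04), of 12 interferon response genes 0 (0.10), of 9 stress and heat shock genes 0 (-0.06) and of 5 genes of p53 and apoptosis 0 (0.00).

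Of 7 cycling genes 1 was called, Tyms, which makes thymidylate for DNA synthesis, found in 21 rich and 9 matched cells (log2 2.61). Tyms passed the filter only through the rich sums, and 3 of 13 alternatives did not call it, with an adjusted p of 0.238 with no filter and 0.207 without plate 1, the third being DESeq2's Wald test. In the other settings where the cycling list had no call, Tyms did not pass the filter. The median of the list was 0.23. Of 36 splicing and RNA decay genes 0 were called (median -0.11), of 26 translation factors 0 (-0.12), of 13 genes of chromatin and DNA methylation 0 (0.10), of 37 genes of actin and integrins 0 (-0.03) and of 27 genes of the respiratory chain 0 (-0.10). Among these, Eef1g, an elongation factor subunit, had 370.4, 298 and 558 CPM in rich cells, against 839, 717 and 718 CPM in matched cells (log2 -0.80, SE 0.32, adjusted p = 0.339). Pfn1, an actin-binding protein, had 3078, 1909 and 3575 CPM in rich cells, against 3034, 1136 and 2291 CPM in matched cells (log2 0.43, SE 0.18, adjusted p = 0.415). Chd4, a chromatin remodeller, had log2 -1.45 (SE 0.59, adjusted p = 0.36), and the ribosomal protein gene Rps3 -0.28 (SE 0.17, adjusted p = 0.855). Of other imprinted genes and of the myeloid markers 1 gene each was tested and 0 were called.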

How the data were processed

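The deposited table holds expected counts that the authors made from UMIs, with 697 cells, 14355 genes and 84 spike-ins. All values (100.0%) lay within 0.005 of a number of molecules estimated from whole UMIs among 4096 sequences of 6 bases, so the authors corrected for collisions and did not scale cells. Mapping used BWA on mm10, per the submitters' processing notes; its version, the strand setting and the filters on cells are not stated in the labels. CD5 was deposited as a fluorescence signal, with the authors' class. A deposited primer sheet gave the well of each barcode, and 285 of 372 well numbers occurred in more than 1 plate because plates share the primer set. No doublet caller was run. The plates held 726230, 1113632 and 1404157 UMIs. The sums of rich cells held 53874, 22891 and 111680 UMIs, and those of matched cells 102435, 43909 and 211868, with Kcnq1ot1.

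The members, gene lists and tests were chosen with earlier results of these data known. The plate is the replicate, and no label ties plates to separate animals. The spread behind the p-values is thus that between plates, which may be technical. In the edgeR test this spread is mostly pooled over genes, with 23.75 prior against 2 residual degrees of freedom. Sums were rounded to whole numbers and tested with edgeR 4.0.16 in R 4.3.3 (quasi-likelihood, TMM, filterByExpr with a minimum count of 10, adjusted p of 0.05, two-sided, 23.75 prior against 2 residual degrees of freedom). The plate was a block because rich and matched sums of a plate come from 1 library. The script was tested on simulated data. Medians over cells were compared by an exact sign-flip permutation over the 3 plates. The held-out reading added 10 CPM. The naming rule takes, for each direction, up to 15 called transcripts whose plates had 1 sign, else those of smallest p up to 6, and up to 4 of smallest p in each list. Some named results are not reported here. Alternatives were other matching (1 or 3 cells, all other cells, the same CD5 class, other cells under 0.5%), cells thinned to 1500 UMIs, thresholds of 1% and 3%, co-varying transcripts or the top cell left out, DESeq2 1.42.0, other filters, no block and each plate left out. Mitochondrial genes were taken by chromosome. Intervals are exact (Clopper-Pearson) at 95%. Transcript sequences are from GENCODE M21. Python 3.11.15, numpy 2.4.6, pandas 2.3.3, scipy 1.17.1 and matplotlib 3.10.9 were used.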

Additional observations from a re-analysis of the deposited data

How the results depend on the processing

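The count of transcripts called higher was 39 as reported and 39 without the plate block, all 39 shared, so the replicate block changed no count of calls. It was 19 with 1 matched cell per rich cell, 84 against all other cells, 17 in cells thinned to 1500 UMIs, 68 with a share over 1%, 22 over 3%, 9 with a mean of at least 50 counts, and 7 to 58 with a replicate plate left out. With the 7 co-varying transcripts left out of all totals, a setting chosen after seeing the data, it was 30. Transcripts called lower numbered 0 as reported, 2 against all other cells, in thinned cells and over 1%, 1 with 3 matched cells, within the CD5 class, over 3%, without the top cell and with no filter, and 0 to 4 with a plate left out. Cycling genes called higher numbered 0 with 1 matched cell, in thinned cells, over 3%, without the top cell, with DESeq2's Wald test, with no filter and with a mean of at least 50 counts, and 0 to 1 with a plate left out. Mitochondrial transcripts called higher numbered 0 with 1 matched cell, against all other cells, with the Wald test, with no filter and with a mean of at least 50 counts, 9 over 1%, 2 against cells under 0.5% and without the top cell, and 0 to 2 with a plate left out. Over 1%, 7 ribosomal protein genes and 1 gene of naive T cell identity were called higher and 1 chromatin gene lower. Of translation factors 1 was called lower against all other cells, in thinned cells, over 1% and over 3%. Of nuclear RNAs 0 to 1 were called higher with a plate left out. The ribosomal protein share turned to 0.28 points in thinned cells and 0.44 over 1%. Rn45s turned to -0.12 with 1 matched cell and in thinned cells, -0.31 against all other cells and -0.07 to 0.44 with a plate left out, and Malat1 to 0.01 in thinned cells and -0.06 to 0.01 with a plate left out. Log2 depth differed by -1.23 against all other cells, -0.07 within the CD5 class, -0.65 over 1% and -0.70 against cells under 0.5%. Log2 genes detected differed by -0.80 against all other cells, -0.45 over 1% and -0.47 against cells under 0.5%. Log2 UMIs per spike-in UMI differed by -1.26 against all other cells, -0.67 over 1%, -0.62 over 3% and -0.79 against cells under 0.5%. These settings do not match depth as closely. Of genes that did not pass, Cd5 turned to 0.28 and Elf4 to 0.03 over 1%, and Tspan32 to -0.08 against all other cells and over 1%, -0.00 within the CD5 class and -0.06 with no filter. The cause of these changes was not tested. With 3 plates, no permutation test over plates can give a p under 0.25.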

Other observations

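Rich cells of plate 3 were not spread evenly over its wells. Rows M to P, chosen after the positions were seen, held 17 of the 35 rich cells of that plate, against 61 of its 289 other cells and 13 of its 70 matched cells. In plate 2 the same rows held 4 of 11 rich cells, against 86 of 190 other cells and 10 of 22 matched cells. In plate 1 they held 1 of 22 rich cells and 0 of 150 other cells. The part of well position in the gene comparison was not tested.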
